A study of Mus musculus with 18 samples.

Results

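The 10 genes described here encode GRP75 and the proteins that work with it in the mitochondrial matrix. They were chosen by gene name: Hspa9, which encodes GRP75, its nucleotide exchange factors Grpel1 and Grpel2, its solubility factor Dnlz, the J proteins Dnaja3, Dnajc15, Dnajc19 and Hscb, and the chaperonin pair Hspd1 and Hspe1. All 10 were listed in each of the 3 deposited tables, which together listed 27830 genes, with 20825 genes in all 3. All 10 also passed the filter on low values in every comparison.

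The libraries hold poly-A RNA of CD8+ T cells from mice, either wild type (WT) or labelled cKO, a conditional knockout of Hspa9. The mice were 8 weeks old. Naive cells came from lymph nodes and spleen, and the effector and memory cells were obtained from naive cells in culture, so neither subset had formed in an infected animal. The 18 libraries formed 6 groups of 3, that is naive WT, naive cKO, effector WT, effector cKO, memory WT and memory cKO. No treatment is labelled for any group. The Cre line, its promoter, the deleted exons and the culture conditions are not given in the sources used here, nor whether each replicate came from its own mouse. The p-values therefore measure only the spread between these libraries, which may be technical.

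GRP75 is the HSP70 of the mitochondrial matrix. It binds unfolded stretches of protein, pulls precursors through the TIM23 channel of the inner membrane, helps them fold, and hands iron-sulfur clusters from their scaffold to recipient proteins. J proteins start its ATP hydrolysis and bring it its clients, exchange factors release the spent ADP, and HSP60 (Hspd1) with its lid HSP10 (Hspe1) folds part of what GRP75 passes on. Activated T cells enlarge and remodel their mitochondria.

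Hspd1 and Hspe1 lie head to head and are transcribed away from each other. In the deposited tables (build GRCm39) Hspd1 spanned chr1:55116994-55127402 on the minus strand and Hspe1 chr1:55127291-55130466 on the plus strand, with 112 bases in both gene models. In the RefSeq promoter table (build GRCm38.p6, 250 bases before to 50 after each start) 7 of the 10 members had an entry, and Hspa9, Grpel2 and Hscb were not in it. The Hspe1 entry shared 285 of its 300 bases with 1 of the 2 Hspd1 entries, chr1:55087883-55088182. The 2 sequences below are the 250 bases before the start of Hspe1 (chr1:55087898-55088147, plus strand), shown because it is shared by a pair whose RNA levels parted in effector cells, and of Dnajc15 (chr14:77874918-77875167, minus strand), the member whose RNA fell most in the libraries labelled cKO. Capitals mark matches to the motifs searched.
Hspe1: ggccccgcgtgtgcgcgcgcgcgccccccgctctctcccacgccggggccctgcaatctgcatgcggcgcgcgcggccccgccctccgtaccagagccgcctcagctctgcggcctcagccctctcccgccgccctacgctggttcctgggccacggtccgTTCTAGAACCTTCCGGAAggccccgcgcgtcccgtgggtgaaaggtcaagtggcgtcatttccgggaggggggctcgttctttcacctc
Dnajc15: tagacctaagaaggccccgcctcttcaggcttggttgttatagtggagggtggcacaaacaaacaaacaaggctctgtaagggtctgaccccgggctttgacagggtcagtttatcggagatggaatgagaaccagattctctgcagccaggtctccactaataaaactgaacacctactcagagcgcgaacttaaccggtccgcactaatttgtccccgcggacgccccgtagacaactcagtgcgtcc

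Both strands of the 300-base promoters were searched for the inverted units of the heat shock element, GAANNTTC and TTCNNGAA, the ATF4 and CHOP composite element TGATGNAA, the E-box CACGTG and the palindromic NRF1 motif. The Hspe1 promoter held TTCNNGAA 2 times, as TTCTAGAA and TTCCGGAA beginning 89 and 79 bases before the start, and GAANNTTC once, as GAACCTTC beginning 84 bases before it. These matches overlap one another and form the single capital run above. Of 32851 promoters in the table, 8.52% held TTCNNGAA, 0.524% held it 2 or more times, 7.86% held GAANNTTC and 1.32% held both. The same run lay in the Hspd1 entry that shares this region. The other Hspd1 entry, chr1:55088194-55088493, held 1 CACGTG and 1 NRF1 motif. The Dnaja3 promoter held the NRF1 motif 2 times. The Dnajc15, Dnajc19, Dnlz and Grpel1 promoters held none of the 5 motifs, and none of the 7 members with an entry held TGATGNAA. The promoters of Hspa9, Grpel2 and Hscb had no entry and were not searched. Among all promoters 3.97% held TGATGNAA, 7.15% CACGTG and 4.6% the NRF1 motif. A match is a description of the sequence and no measurement of binding.

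Sequencing depth was even, at 14771251 to 18049774 recovered reads per library. The labelled cell type matched its markers in every group, with 11 CD8 T cell genes summing to 5462 to 8145 CPM: Cd8a, a chain of the CD8 co-receptor, ranged from 1044 to 1792 CPM (read counts scaled to library size). The granule protease gene Gzmb was at 1698 to 1959 CPM in effector libraries and at most 70.3 CPM in the others. Several features moved with genotype. The CD8 T cell sum was lower in the libraries labelled cKO of each subset. In naive cells it was 7174 to 7418 CPM in WT against 6326 to 6635. In effector cells it was 8036 to 8145 against 7329 to 7604, and in memory cells 6459 to 6969 against 5462 to 6239. Of this list Cd8b1 was lower in each subset, in effector cells at 1275 to 1318 against 778.1 to 807.1. Cd3d, Cd3e, Cd3g, Trac and Cd5 were instead higher in effector cells labelled cKO. Y-linked genes (Ddx3y, Eif2s3y, Kdm5d and Uty) had reads in all 3 naive libraries labelled cKO, with Ddx3y at 178.4 to 196.7 CPM, and were at 0 in the other 15 libraries. The female-specific RNA Xist was at 264.6 to 297.8 CPM in those naive libraries and at 870 to 1044 CPM in naive WT. The sex of the animals is not labelled, so in naive cells genotype and this difference cannot be told apart. Every naive library labelled cKO thus held both the female-specific and the Y-linked RNA, at similar levels in all 3, as a mix of female and male cells would. Whether these libraries were pools of several mice was not tested, so they may not stand for separate animals. Marker lists of other cells are given beside each subset below.

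Hspa9 RNA was higher, not lower, in the libraries labelled cKO in all 3 subsets. Hspa9 lies at chr18:35070467-35087410 on the minus strand, and its reads were counted over the whole gene, so a deleted stretch cannot be seen in these values. The values in this and the following paragraphs on genotype are normalised reads, that is reads divided by 1 size factor per library, and are comparable within a subset. In naive cells the WT libraries had 4095, 3789 and 4093 normalised reads of Hspa9, and the libraries labelled cKO had 6448, 6718 and 6149. In effector cells WT had 2001, 2138 and 2140, against 2168, 2450 and 2401. In memory cells WT had 3916, 4154 and 4053, against 5778, 5669 and 5463. Every library labelled cKO lay above every WT library of its subset, closely so in effector cells. The means were 3992 ± 176 and 6438 ± 284 in naive, 2093 ± 79.7 and 2340 ± 151 in effector, and 4041 ± 119.5 and 5637 ± 160 in memory cells (SD, n = 3). The fold change was 1.61 in naive (log2 0.69, SE 0.06, adjusted p = 1.3e-05), 1.12 in effector (log2 0.16, SE 0.05, adjusted p = 0.0335) and 1.40 in memory cells (log2 0.48, SE 0.07, adjusted p = 0.00034). These are limma tests with Benjamini-Hochberg adjustment over all genes tested, called under 0.05. The effector call was lost without effector WT replicates 1 or 3 or effector cKO replicates 2 or 3 (adjusted p 0.0599 to 0.162). The authors' deposited table gave log2 WT over cKO of -0.69, -0.16 and -0.48, with adjusted p of 3.7e-20, 0.0435 and 8.55e-09.

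**Figure D1:**
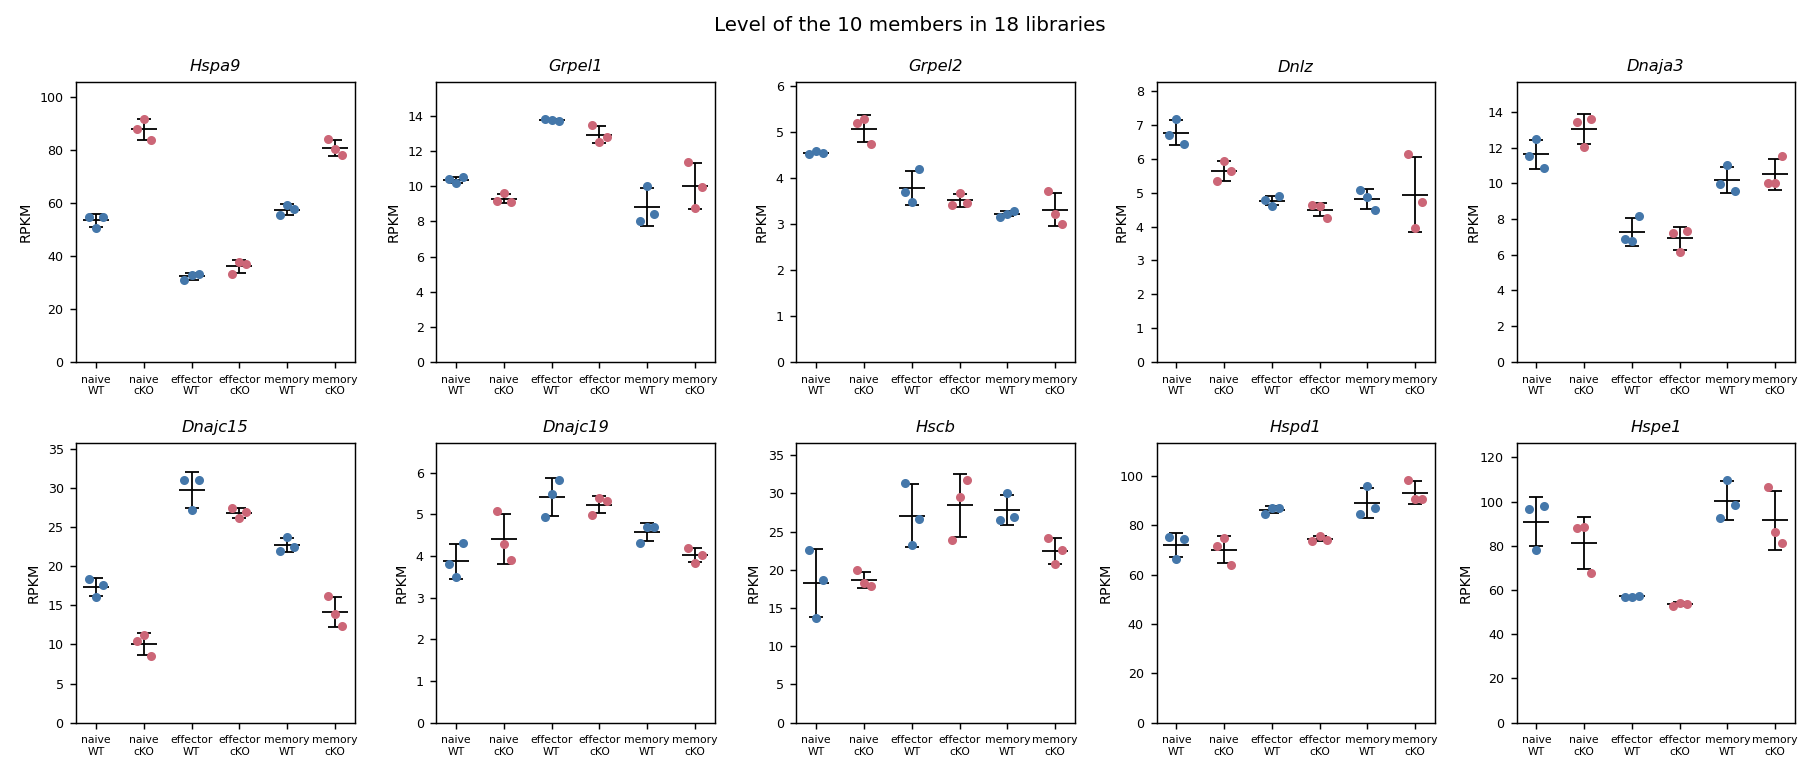
RPKM (reads per gene length, scaled to library size) of each of the 10 members, 1 panel per gene with its own vertical axis from 0; points are the 3 libraries of each group (blue WT, red labelled cKO), bars the mean ± SD. Hspa9 stood highest in naive cKO (87.9 RPKM) and lowest in effector WT (32.3), and Dnajc15 the other way round, from 10.1 in naive cKO to 29.8 in effector WT.

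Dnajc15 was the one partner that fell in more than 1 subset. It encodes a J protein of the inner membrane, also known as MCJ, which restrains the respiratory chain and is known for this in CD8+ T cells. In naive cells WT libraries had 2076, 1827 and 1980 normalised reads, and those labelled cKO had 1155, 1246 and 939.4. In memory cells WT had 2339, 2503 and 2391, against 1683, 1476 and 1307. In both subsets every library labelled cKO lay below every WT library. Dnajc15 was 1.77-fold lower in naive (log2 -0.82, SE 0.10, adjusted p = 0.000124) and 1.63-fold lower in memory cells (log2 -0.70, SE 0.09, adjusted p = 0.000192, both limma). In effector cells WT had 3042, 2660 and 3039 and the libraries labelled cKO 2701, 2562 and 2638, so the groups overlapped. The effector difference was -0.14 on the log2 scale (95% interval -0.25 to -0.04) and missed the threshold with limma (adjusted p = 0.0536), while edgeR on recovered reads called it (adjusted p = 0.0416).

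Across all members, 1 was higher and 1 lower in naive cells, 1 higher and 1 lower in effector cells, and 1 higher and 2 lower in memory cells. Among all genes tested 24.9% were called in naive cells (12.9% higher, 11.9% lower), 20.1% in effector cells (10.7% higher, 9.37% lower) and 19.1% in memory cells (12.1% higher, 7% lower). The 2 or 3 of 10 members called are thus close to the share of all genes. The members' median log2 change, in the order naive, effector and memory, was -0.02, -0.08 and 0.01, against -0.01, -0.01 and -0.02 over all genes tested. The WT and cKO libraries did not overlap for 5, 4 and 4 members in the same order, and for 39.8%, 35.4% and 36.2% of all genes tested. With library totals in place of the deposited scaling, the median of all naive genes moved by 0.12 and that of memory genes by 0.07. The share of calls that were higher then went from 52.0% to 77.9% in naive and from 63.3% to 78.0% in memory cells.

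**Figure D2:**
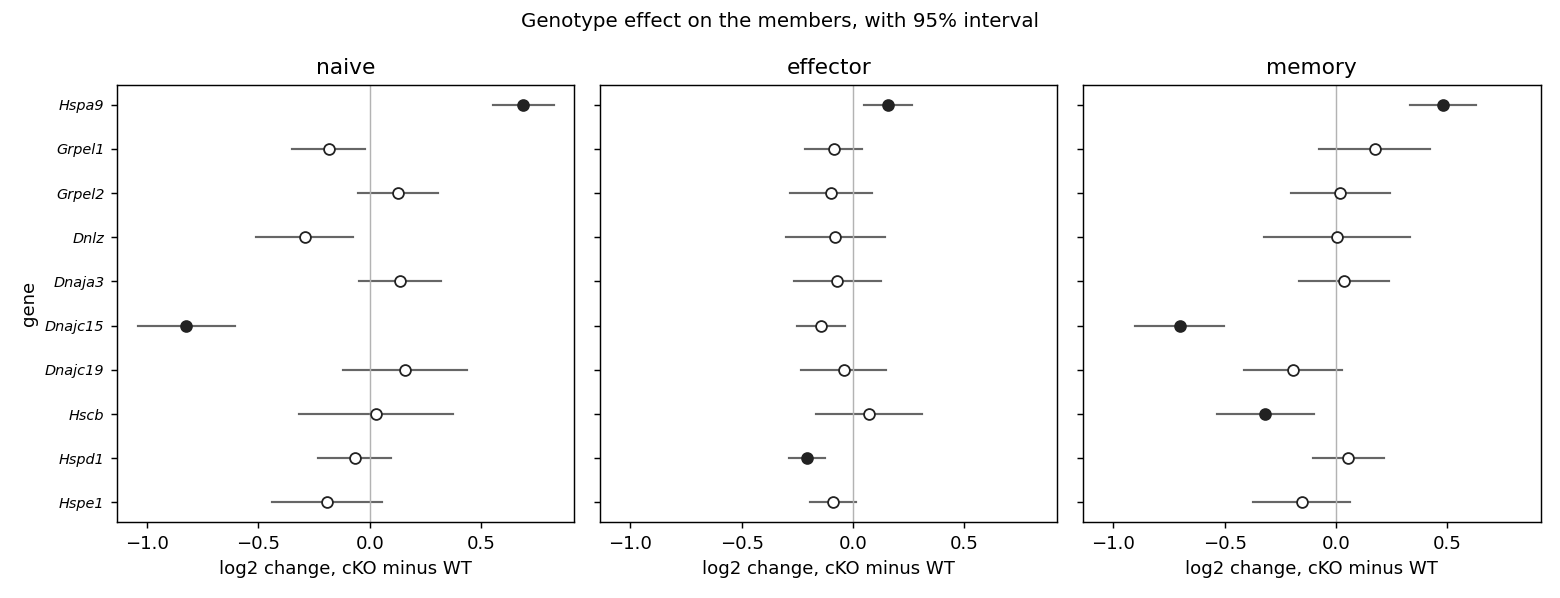
Log2 change (labelled cKO minus WT, horizontal axis) of each member in naive, effector and memory cells, with 95% intervals; filled points passed the limma test at an adjusted p under 0.05. Hspa9 lay to the right in all 3 panels, from 0.16 to 0.69, and Dnajc15 to the left, from -0.82 to -0.14, with its effector point open.

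The exchange factors did not pass the test in any subset. Grpel1 (chr5:36622342-36631424, plus strand) encodes the housekeeping nucleotide exchange factor of GRP75. In naive cells it had 634.7, 624.8 and 641 normalised reads in WT and 550.8, 574.5 and 546 in the libraries labelled cKO, which did not overlap, with a log2 difference of -0.19 (95% interval -0.35 to -0.02, adjusted p = 0.0964). In memory cells it had 462.1, 573.4 and 484.6 in WT and 640.6, 503.5 and 571.5 in those labelled cKO, which overlapped (log2 0.17, 95% interval -0.07 to 0.42, adjusted p = 0.328). Grpel2 (chr18:61845495-61859396, minus strand), its relative with a role linked to oxidative stress, ranged from 329.8 to 605.6 normalised reads. Its log2 difference was 0.13 in naive (adjusted p = 0.285), -0.10 in effector (adjusted p = 0.488) and 0.02 in memory cells (adjusted p = 0.925). Scaled to library totals, the naive Grpel2 difference was 0.25 and passed the test (adjusted p = 0.0445). Dnlz (chr2:26238133-26242122, minus strand) encodes a zinc finger protein that keeps GRP75 soluble. It had 338.4, 364.4 and 324.9 normalised reads in naive WT and 265.1, 293.6 and 280 in naive cKO, without overlap, and narrowly missed the threshold (log2 -0.29, 95% interval -0.51 to -0.07, adjusted p = 0.0517).

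Among the J proteins other than Dnajc15, only Hscb passed the test, in memory cells, and that call was fragile. Hscb (chr5:110976936-110987643, minus strand) hands the iron-sulfur scaffold to GRP75. It had 392.9, 441.5 and 398.1 normalised reads in memory WT and 349.5, 307.5 and 331.6 in memory cKO, with no overlap (log2 -0.32, SE 0.10, adjusted p = 0.0446). DESeq2 on recovered reads gave -0.32 with an adjusted p of 0.105, and the call was also lost without any one of memory WT replicates 1, 2 or 3 or memory cKO replicates 2 or 3 (adjusted p from 0.0879 to 0.143). In naive cells Hscb ranged from 216 to 354.2 in WT and from 274 to 306.4 in the libraries labelled cKO. Dnaja3 (chr16:4457853-4525559, plus strand), the matrix J protein known as Tid1, had log2 differences of 0.14 (naive), -0.07 (effector) and 0.03 (memory), with adjusted p of 0.267, 0.659 and 0.842. Its naive difference scaled to library totals was 0.25 (adjusted p = 0.0425). Dnajc19 (chr3:34110169-34135470, minus strand), the J protein of the TIM23 import motor, had 284.6, 306.5 and 308.6 normalised reads in memory WT and 269.7, 252.7 and 264.2 in memory cKO. These did not overlap, yet the difference of -0.19 did not pass (95% interval -0.41 to 0.03, adjusted p = 0.219).

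The chaperonin Hspd1 was lower in effector cells labelled cKO. WT effector libraries had 3362, 3464 and 3454 normalised reads and those labelled cKO 2942, 3006 and 2955, a tight separation of 1.16-fold (log2 -0.21, SE 0.04, adjusted p = 0.000697). In naive cells the Hspd1 difference was -0.07 (adjusted p = 0.553), and its sign turned when libraries were scaled to their totals. In memory cells it was 0.05 (95% interval -0.11 to 0.21, adjusted p = 0.659). Hspe1, its co-chaperonin, had 1262, 1260 and 1273 in effector WT and 1171, 1202 and 1196 in effector cKO. These did not overlap, but the difference of -0.09 did not pass (95% interval -0.19 to 0.02, adjusted p = 0.231). In naive cells Hspe1 differed by -0.19 (adjusted p = 0.243) and in memory cells by -0.15 (adjusted p = 0.326). Without memory cKO replicate 1, the memory difference was -0.26 and passed (adjusted p = 0.0192).

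Markers of other cells and of division moved with genotype in each subset. In bulk RNA fewer cells of a type and less RNA per cell cannot be told apart. In naive cells the summed level of 12 proliferation genes was 101.2 to 112.1 CPM in WT and 362.7 to 391.4 in the libraries labelled cKO, and that of the 6 listed gamma-delta T cell genes 9.62 to 11.1 against 50.5 to 59.2. The gamma-delta genes were also higher in effector (9.02 to 9.67 against 64 to 66.7) and memory cells (16.0 to 16.8 against 117.7 to 152.8). The 6 CD4 T cell genes summed to 58.4 to 68.1 in naive WT and 111.5 to 127.9 CPM in naive cKO. Most of that was Ctla4, at 52.85 to 60.36 and 87.25 to 104.7 CPM. In effector cells the proliferation genes summed to 3612 to 3733 in WT and 2601 to 2697 CPM in those labelled cKO, and the 9 erythroid genes to 15.5 to 17.1 against 102.5 to 105.6. The 11 B cell genes summed to 282.4 to 293.1 in effector WT and 460.3 to 463.3 CPM in effector cKO, the 8 NK cell genes to 1519 to 1563 against 1884 to 1931, and the 12 myeloid genes to 878 to 881.5 against 1027 to 1055. Of these NK cell genes Klrb1c (28.75 to 31.84 against 14.18 to 16.53) and Eomes (77.37 to 92.74 against 67.16 to 75.92) were lower. Nkg7 overlapped, and Klrk1, Klre1, Klra1, Klra8 and Ncr1 were higher. Most of the effector myeloid sum was Itgax (694.6 to 709.5 against 783.5 to 806.4). Itgam was lower (65.7 to 77.24 against 50.99 to 56.72), and the other listed myeloid genes were higher. In memory cells the 11 B cell genes summed to 876.2 to 972.4 in WT and 1597 to 1930 CPM in those labelled cKO, and the 12 myeloid genes to 108.7 to 122.9 against 519.8 to 662.4. The 8 NK cell genes summed to 465.6 to 534.4 in memory WT and 781.5 to 924.8 CPM in memory cKO, the CD4 T cell genes to 253.5 to 269.7 against 151.6 to 168.8, the proliferation genes to 421.6 to 429.6 against 541.2 to 589.7, and the erythroid genes to 24.7 to 34.6 against 63.7 to 79.5. The lower CD4 T cell sum was that of Ctla4 (233.8 to 245.5 in memory WT, 103.1 to 123.1 in memory cKO). Cd4 (5.9 to 7.7 against 13.5 to 15.8) and Zbtb7b (4.06 to 5.24 against 13.96 to 16.07) were higher. Il2ra was higher too (4.575 to 5.829 against 12.87 to 13.33), and Foxp3 and Cd40lg overlapped. The 5 platelet genes stayed at or below 14.4 CPM in all libraries. No gene of the proliferation, listed gamma-delta, CD4 T cell or B cell lists was at 0 in these groups, nor of the erythroid list in effector or the myeloid list in memory or the NK cell list in either. The part of these cells in the members' differences was not tested.

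The genotype effect on Hspa9 and Dnajc15 differed between subsets. This was tested as an interaction in 1 limma model of all 18 libraries, where the 3 differences share libraries with one another. Hspa9 had an effect 0.53 smaller in effector than in naive cells on the log2 scale (log2 difference -0.53, SE 0.08, adjusted p = 7.38e-05) and 0.32 larger in memory than in effector cells (SE 0.08, adjusted p = 0.0174), the latter call being lost without effector cKO replicate 1 or memory WT replicate 1 (adjusted p 0.0579 and 0.0526). Between memory and naive cells its effect differed by -0.21 (95% interval -0.38 to -0.04), which missed the threshold (adjusted p = 0.0926). The Dnajc15 effect differed by 0.68 between effector and naive cells (SE 0.13, adjusted p = 0.000636) and by -0.56 between memory and effector cells (SE 0.13, adjusted p = 0.00817), since the fall in naive and memory cells was larger. Between memory and naive cells it differed by 0.12 (95% interval -0.15 to 0.39, adjusted p = 0.579). Grpel1 differed by 0.36 between memory and naive cells (SE 0.12, adjusted p = 0.0467), but edgeR on recovered reads gave 0.34 with an adjusted p of 0.0688, and the call was lost without any 1 naive library, memory WT replicates 1 or 3, or memory cKO replicates 1 or 3 (adjusted p 0.0635 to 0.134). The Hspd1 effect did not pass the test of a difference between subsets, with 0.26 for memory minus effector (95% interval 0.07 to 0.45, adjusted p = 0.0777). Without memory WT replicate 2 this difference was 0.31 and passed (adjusted p = 0.0371). Thus 2 members were called for effector against naive, 1 for memory against naive and 2 for memory against effector cells. In the same order, of all genes tested 18.5% (8.81% higher, 9.69% lower), 16.9% (7.89% higher, 9% lower) and 8.71% (4.75% higher, 3.96% lower) were called.

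Ratios between members within a library, taken per kilobase, do not depend on library scaling. The ratio of Hspe1 to Hspa9 was 1.70 ± 0.13 in naive WT and 0.924 ± 0.10 in naive cKO (SD, n = 3), 1.77 ± 0.07 and 1.49 ± 0.08 in effector cells, and 1.75 ± 0.09 and 1.13 ± 0.12 in memory cells. No library labelled cKO reached a WT library of its subset. The ratio of Dnajc15 to Dnajc19, which share ancestry as J proteins of the inner membrane, was 4.51 ± 0.39 and 2.29 ± 0.31 in naive, 5.53 ± 0.70 and 5.13 ± 0.33 in effector, and 4.97 ± 0.16 and 3.51 ± 0.41 in memory cells, WT first. Only in effector cells did these groups overlap. The ratio of Grpel2 to Grpel1 was 0.438 ± 0.0090 in naive WT and 0.545 ± 0.024 in naive cKO, 0.274 ± 0.028 and 0.272 ± 0.021 in effector, and 0.369 ± 0.041 and 0.331 ± 0.033 in memory cells, WT first. Only the naive groups did not overlap. The ratio of Hspd1 to Hspe1 was 0.795 ± 0.048 and 0.868 ± 0.069 in naive cells, WT first, which overlapped. It was lower in effector cells labelled cKO (1.51 ± 0.023 and 1.39 ± 0.012) and higher in memory cells (0.889 ± 0.020 and 1.03 ± 0.098), both without overlap. An exact two-sided permutation test of 3 libraries against 3 cannot go below p = 0.1, and none of the 12 ratio tests had an adjusted p under 0.15.

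**Figure D3:**
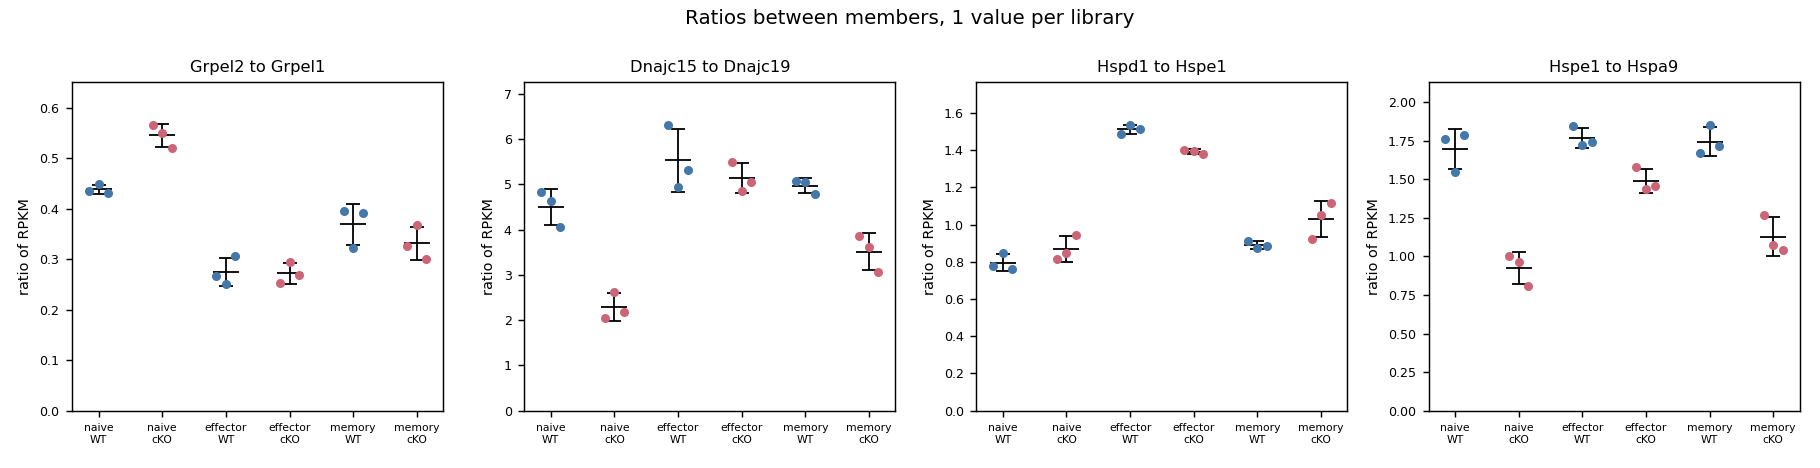
Ratios of RPKM between pairs of members, 1 point per library, with bars for mean ± SD over 3 libraries (blue WT, red labelled cKO); each axis starts at 0. Hspe1 to Hspa9 was 1.70, 1.77 and 1.75 in naive, effector and memory WT and lower in every library labelled cKO, while Hspd1 to Hspe1 was highest in effector cells.

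Levels per length were compared across subsets as RPKM on recovered reads. Hspe1, Hspd1 and Hspa9 were the most abundant members in all 6 groups, at 53.6 to 100.4, 70.2 to 93.3 and 32.3 to 87.9 RPKM. Hscb and Dnajc15 followed at 18.3 to 28.4 and 10.1 to 29.8, though Dnajc15 lay below Dnaja3 in naive cKO. Grpel1 and Dnaja3 were at 8.81 to 13.8 and 6.91 to 13.0. Grpel2, Dnajc19 and Dnlz were the lowest, at 3.22 to 5.07, 3.87 to 5.42 and 4.50 to 6.78. Hspa9 fell in the order naive cKO (87.9), memory cKO (80.8), memory WT (57.5), naive WT (53.5), effector cKO (36.1) and effector WT (32.3), and only the first pair of neighbours overlapped. Dnajc15 fell from effector WT (29.8) and effector cKO (26.8), which overlapped, to memory WT (22.7), naive WT (17.4) and memory cKO (14.1), of which the last pair overlapped, and naive cKO (10.1). Of the summed RPKM of the 10 members, Hspa9 made up 18.5% ± 0.63 in naive WT and 28.8% ± 1.14 in naive cKO, 12.1% ± 0.57 and 14.3% ± 0.59 in effector, and 17.5% ± 0.56 and 24.2% ± 1.05 in memory cells (SD, n = 3).

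All 10 members differed between WT effector and WT naive cells, 5 in each direction, in edgeR's quasi-likelihood test with Benjamini-Hochberg adjustment. Of all genes tested 70.5% were called (35.8% higher, 34.7% lower). Dnajc15 was 1.67-fold higher in WT effector cells (log2 0.74, SE 0.07), Hscb 1.44-fold, Dnajc19 1.36-fold, Grpel1 1.30-fold and Hspd1 1.17-fold. Hspa9 was 1.70-fold lower (log2 -0.76, SE 0.06), Dnaja3 1.64-fold, Hspe1 1.64-fold (log2 -0.71, SE 0.08), Dnlz 1.46-fold and Grpel2 1.23-fold. The adjusted p lay between 5.77e-10 (Hspa9) and 0.00535 (Grpel2). Scaled to library totals, the Hspd1 rise was 0.13 and did not pass (adjusted p = 0.0622). The chaperonin pair thus parted: Hspd1 to Hspe1 stood at 1.51 ± 0.023 in effector WT against 0.795 ± 0.048 in naive WT and 0.889 ± 0.020 in memory WT (SD, n = 3). The exchange factors parted too, with Grpel1 higher and Grpel2 lower.

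WT memory cells were closer to naive cells for Hspa9 and Hspe1. Between WT memory and WT naive cells, 3 members were higher and 3 lower, with 39.5% of all genes called (21.7% higher, 17.8% lower). On the log2 scale Hscb was higher by 0.58, Dnajc15 by 0.36 and Hspd1 by 0.29, and Grpel2 and Dnlz each differed by -0.52 and Grpel1 by -0.26. Hspa9 differed by 0.08 (95% interval -0.04 to 0.20, adjusted p = 0.278) and Hspe1 by 0.12 (95% interval -0.04 to 0.28, adjusted p = 0.235). Between WT memory and WT effector cells, 3 were higher and 3 lower, with 65.1% of all genes called (32.7% higher, 32.4% lower). Hspa9 was 1.80-fold (log2 0.85, SE 0.06, adjusted p = 1.64e-10), Hspe1 1.78-fold and Dnaja3 1.41-fold higher in memory cells, and Grpel1 1.55-fold, Dnajc15 1.30-fold and Grpel2 1.16-fold lower. The 3 WT comparisons share libraries, so their values stand side by side and are not independent. Without 1 library, the lower Grpel1 in WT memory against naive cells was lost in 3 of 6 cases (naive WT replicate 3, memory WT replicates 1 and 3; adjusted p 0.0531 to 0.12), and the Grpel2 difference from effector cells in every case but effector WT replicate 2 (adjusted p 0.0596 to 0.251).

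In the libraries labelled cKO, 8 members differed between effector and naive cells (3 higher, 5 lower), against 69.4% of all genes (36.2% higher, 33.1% lower). Hspa9 was 2.45-fold lower (log2 -1.29, SE 0.07, adjusted p = 6.32e-11) and Dnajc15 2.66-fold higher (log2 1.41, SE 0.10, adjusted p = 2.31e-09) in effector cells. Dnlz, 1.26-fold lower, lost its call without any 1 of the 6 naive and effector libraries (adjusted p 0.0567 to 0.138). Between memory and naive cells 2 were higher (Dnajc15 1.41-fold, Hspd1 1.33-fold) and 2 lower (Grpel2 1.53-fold, Dnaja3 1.24-fold), against 42.2% of all genes (23.9% higher, 18.4% lower). Between memory and effector cells 4 were higher and 4 lower, against 59.3% of all genes (30.2% higher, 29.2% lower). The higher ones were Hspa9 (2.25-fold), Hspe1 (1.71-fold), Dnaja3 (1.53-fold) and Hspd1 (1.26-fold), and the lower ones Dnajc15 (1.89-fold), Dnajc19 (1.30-fold), Grpel1 (1.28-fold) and Hscb (1.26-fold). The Hscb call was lost without effector cKO replicates 2 or 3 or memory cKO replicate 2 (adjusted p 0.0635, 0.103 and 0.0731). Scaled to library totals, the Hscb and Dnajc19 calls were lost (adjusted p 0.122 and 0.0604).

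Hspa9 and Dnajc15 ran opposite to each other over the 18 libraries. Pearson's r of their log2 CPM was -0.90, and of 10106 genes compared 198 (1.96%) had a more negative r with Hspa9. After the mean of each subset was subtracted, r was -0.88 and 55 genes (0.544%) were more negative. These r describe libraries that fall into 6 groups and share the genotype contrast, so they add no separate evidence to the tests above. Hspd1 and Hspe1 had an r of 0.30, and of 0.69 with the subset means subtracted.

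**Figure D4:**
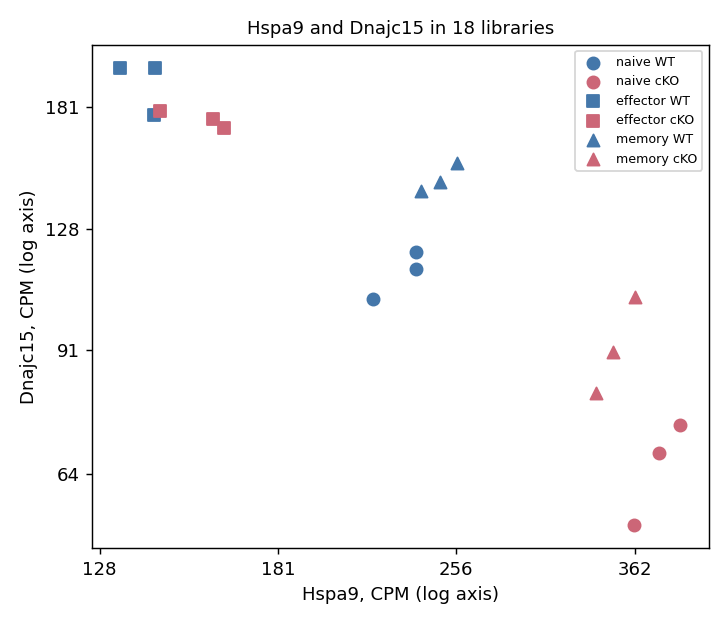
Dnajc15 CPM against Hspa9 CPM, both on log axes, 1 point per library (circles naive, squares effector, triangles memory; blue WT, red labelled cKO). Effector libraries sit at the upper left and naive cKO libraries at the lower right, and in naive and memory cells the red points lie right of and below the blue ones.

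The genes whose levels were most like those of Hspa9 over the 18 libraries were Usp11, Gbp11, Pabpc4, Sft2d2 and Ndrg1, with r from 0.96 to 0.98. With subset means subtracted, which leaves mainly the genotype difference, they were Clic4, Pogk, Slc3a2, Map3k8 and Mdfic, with r from 0.96 to 0.97. Slc3a2 encodes the heavy chain of large neutral amino acid transporters. Most like Hspd1 were Gpr183, Eomes, Bank1, Cd79a and Trbv12-2 (r 0.83 to 0.88), of which Cd79a belongs to the B cell marker list and Eomes to the NK cell list. With subset means subtracted they were Ran, Hsp90aa1, Ywhah, Emb and 1700037H04Rik (r 0.86 to 0.91). Hsp90aa1 encodes the inducible cytosolic HSP90. None of these values comes with a test.

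Genes of the neighbouring machinery were counted against the shares of all genes called, 24.9% (naive), 20.1% (effector) and 19.1% (memory); lists this small were not compared with them by a test. Of 4 other mitochondrial J proteins none was called in any subset by limma. Of 8 genes of the TIM23 channel and import motor, 1 was lower in naive cells, Romo1 (log2 -0.50, adjusted p = 0.0451), and none was called in effector or memory cells. Of 12 iron-sulfur cluster genes, 11 of them tested in effector and memory cells, 1 was higher in effector cells, Isca1 (log2 0.20, adjusted p = 0.00905), and none was called elsewhere. Of 11 matrix and inner membrane proteases with Trap1, 1 was lower in each subset: Pmpca, of the presequence peptidase, in naive (log2 -0.23), Spg7, of the m-AAA protease, in effector (log2 -0.18) and Yme1l1, the i-AAA protease, in memory cells (log2 -0.25). The medians of these lists lay between -0.12 and 0.04 on the log2 scale, and those of all genes between -0.02 and -0.01.

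Other HSP70 and HSP110 genes and stress transcription factors were counted in the same way. Of 12 HSP70 and HSP110 genes, 4 were lower in naive cells labelled cKO: Hspa1a (log2 -2.83, adjusted p = 0.000194) and Hspa1b (log2 -2.40, adjusted p = 7.25e-06), the stress-inducible pair, Hsph1 (log2 -0.39) and Hspa8 (log2 -0.23). Hspa5, the HSP70 of the endoplasmic reticulum, was higher (log2 0.19, adjusted p = 0.0339). In effector cells only Hsph1 was called (log2 -0.17, adjusted p = 0.0106), and in memory cells none of the 12. Of 8 stress transcription factor genes, 4 were higher in naive cells: Atf5, a factor of the mitochondrial stress response (log2 4.07, adjusted p = 4.17e-09), Ddit3, which encodes CHOP (log2 1.87, adjusted p = 2.37e-08), Atf4 (log2 0.56) and Myc (log2 0.61). The same 4 were higher in memory cells, Atf5 by 2.90, Ddit3 by 0.67, Myc by 0.38 and Atf4 by 0.32 on the log2 scale. In effector cells Ddit3 (log2 0.29) and Hsf1 (log2 0.20) were higher, and Atf5 differed by 0.27 (adjusted p = 0.206). The list's median was 0.37, 0.14 and 0.26 in naive, effector and memory cells, against -0.01, -0.01 and -0.02 over all genes.

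Some members share sequence or position with other genes, and whether counting used strand is not stated. Dnaja3 overlapped Coro7 on the other strand over 39789 bases and Vasn on its own strand over 10814 bases, and Coro7 had 1775 to 3844 reads per library. Dnajc19 overlapped Fxr1 on the other strand over 14303 bases, with 1554 to 2154 reads of Fxr1. The values of Dnaja3 and Dnajc19 are uncertain to that extent. The copy Hspd1-ps3 had 37 to 207 reads, few beside the 2869 to 4270 of Hspd1. RPKM rests on the gene model length, which for Hscb was 905 bases and for Dnajc15 6513, so levels between genes depend on those models.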

How the data were processed

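Poly-A RNA of 18 mouse CD8+ T cell libraries (3 subsets, 2 genotypes, 3 replicates) was analysed from 3 deposited tables. Per the submitters' processing notes, the authors used HISAT2 2.2.1 and featureCounts 2.0.6, with fastp and DESeq2 1.42.0, on GRCm39; annotation and strand setting are not given in the sources used here. The deposited signal values are reads divided by 1 size factor per library, set within each table. The authors also deposited log2 fold changes (WT over cKO) and p-values. Whole reads were recovered by dividing by the smallest positive value of each library (100% of values whole within 1e-05 reads), and gave 14771251 to 18049774 reads per library.

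Genotype effects were fitted with limma 3.58.1 (R 4.3.3, intensity trend) on log2(normalised reads + 1) of genes with at least 10 in at least 3 libraries, so changes of low genes are understated. Interactions used 1 model of 18 libraries, and subsets were compared with edgeR 4.0.16 (quasi-likelihood, TMM) on recovered reads. P-values were Benjamini-Hochberg adjusted over all genes, called under 0.05. On recovered reads edgeR called 3432, 2819 and 2869 genes in naive, effector and memory cells, against 3454, 2779 and 2793 by limma. RPKM used TMM and the deposited gene lengths. Ratios were compared by exact permutation. Scripts were tested on simulated data.

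The members, gene lists, tests and alternatives were chosen with earlier results of these data known. Named were all members, up to 3 called genes per other list and comparison with Atf4, Atf5 and Ddit3 (Hspa5, Hspa8 and naive Myc were named after their values were seen), and the 5 genes most like Hspa9 and Hspd1 among genes averaging at least 2 in log2 CPM. The shares of summed RPKM and the Hspa9 and Dnajc15 correlation were added after the data were seen. Promoters are RefSeq's (GRCm38.p6). The alternatives were a pseudocount of 0.5, no filter, edgeR, DESeq2 1.42.0, other scalings, a fit of all libraries, a replicate block and leaving out each library.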

Additional observations from a re-analysis of the deposited data

Results flagged for a closer look

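The genotype effect differed between subsets for 3 members in 5 tests of the interaction. For Hspa9, the rise in the libraries labelled cKO differed by -0.53 on the log2 scale between effector and naive cells, with 6438 ± 284 against 3992 ± 176 normalised reads in naive and 2340 ± 151 against 2093 ± 79.7 in effector cells (SD, n = 3). It differed by 0.32 between memory and effector cells. That second difference was lost without effector cKO replicate 1 (0.27, adjusted p = 0.0579) and without memory WT replicate 1 (0.30, adjusted p = 0.0526).

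For Dnajc15 the difference was 0.68 between effector and naive cells and -0.56 between memory and effector cells, with WT above the libraries labelled cKO by 1.76-fold in naive, 1.11-fold in effector and 1.62-fold in memory cells by the ratio of means. For Grpel1 it was 0.36 between memory and naive cells, where its level was lower by 0.19 in naive and higher by 0.17 in memory cells and neither change passed its own test. The naive libraries labelled cKO are also those with reads of Y-linked genes, which touches the comparisons with naive cells and not the 2 between memory and effector cells.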

How the results depend on the processing

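No called result changed direction under any alternative tried, and the calls of Hspa9 and Dnajc15 in naive and memory cells held under all of them. The naive Hspd1 difference, not called, turned sign when scaled to library totals. The number of naive members called was 4 when scaled to library totals (Hspa9, Dnajc15, Grpel2 and Dnaja3) instead of 2. In effector cells 1 member was called, instead of 2, in the fit of all 18 libraries, where Hspa9 kept its value of 0.16 but not its call (adjusted p = 0.0988). Leaving out 1 library gave 1 to 3 effector members, and an Hspa9 change of 0.13 to 0.21 that lost its call without effector WT replicates 1 or 3 or effector cKO replicates 2 or 3 (adjusted p from 0.0599 to 0.162). The Hspd1 fall in effector cells kept its call throughout. For the genotype effect between memory and naive cells, 0 members were called without the filter, with edgeR and with the replicate block (Grpel1 adjusted p 0.0596, 0.0688 and 0.0634; 3 members had an unadjusted p under 0.05 with limma), and 0 to 1 with 1 library left out. Between memory and effector cells, 1 to 3 members were called with 1 library left out. Genes called numbered 2138 and 2127 without naive cKO replicates 1 and 2 (against 3454), 1519 for effector cells in the fit of all libraries (against 2779), and 1830 and 1836 without memory WT replicate 3 and memory cKO replicate 3 (against 2793).

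Whether replicate numbers pair the samples is not labelled. Deviations of same-numbered WT and cKO libraries correlated by -0.41 to 0.22 in naive, -0.07 to 0.09 in effector and -0.34 to 0.17 in memory cells. With few libraries per group these r constrain one another, so they cannot decide whether samples were paired. With the replicate block, Dnajc15 in effector cells was called (adjusted p = 0.035) and Hscb in memory cells was not (adjusted p = 0.106). The cause of these changes was not tested.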

Other observations

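The highest correlations of deviations were between libraries of different replicate number. Deviations from the group means correlated by 0.54 over 9486 genes between naive WT replicate 2 and naive cKO replicate 3, and by 0.47 over 9658 genes between memory WT replicate 2 and memory cKO replicate 1. Each was picked as the highest of the 9 pairs of its subset, and the lowest were -0.41 and -0.34. Deviations within a group cancel out, so pairs of both signs must arise, and these r do not show that libraries belong together. Among the members, naive WT replicate 2 and naive cKO replicate 3 had the lowest values of their groups for Hspe1 (2005 and 1699 normalised reads), Hspd1 (3053 and 2879) and Dnajc15 (1827 and 939.4). The same held for Hspa9 (3789 and 6149), Grpel1, Dnajc19 and Hscb. Dnaja3 was instead highest in both libraries (849.8 and 905.3), and Grpel2 and Dnlz were not lowest in both. Memory WT replicate 2 and memory cKO replicate 1 had the highest values of their groups for Grpel1 (573.4 and 640.6), Hspe1 (2630 and 2512), Hspd1 (4114 and 4157) and Dnajc15 (2503 and 1683). Hspa9 (4154 and 5778) and Hscb (441.5 and 349.5) were highest there too, and Grpel2, Dnlz, Dnaja3 and Dnajc19 were not highest in both.

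Dnajc15 was most like Gmfg, Cox7b, Atp5l, Chmp1b and Selenof over the 18 libraries (r 0.95 to 0.97), a choice made after its values were seen. Cox7b and Atp5l encode subunits of cytochrome oxidase and ATP synthase. With subset means subtracted it was most like Gimap9, Npc2, Sugt1, Tlr1 and mt-Tp (r 0.95 to 0.96).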
